A study of Homo sapiens with 27 samples.

Results

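The transcriptomes of 2 states of IMR90 cells were compared: senescence induced by ionizing radiation and quiescence induced by contact inhibition. IMR90 is an established line of normal human fetal lung fibroblasts. The comparison used 6 of the 27 libraries of the series, the 3 RNA-seq libraries titled as irradiated and the 3 titled as quiescent, and the gene IDs annotated as protein coding (19307 of 60534), of which 13291 passed a filter on low counts and were tested. Irradiated cells had received 15 Gy and were harvested after 10 days. Quiescent cells were contact-inhibited, with no other treatment stated. All were labelled wild type, and the growth medium was high-glucose DMEM with 10% fetal bovine serum, added non-essential amino acids and an antibiotic and antimycotic mix. The labels do not say for how long the quiescent cells were held at confluence, nor whether replicates came from separate cultures. The p-values thus measure only spread between libraries, estimated over all 13 RNA-seq libraries of the series in 1 fit. Ribosome footprints (Ribo-seq, which reads the stretch of mRNA covered by each ribosome) of the same 2 states, 3 libraries each, were used as a further readout of the same genes. Libraries of cycling, etoposide-induced senescent and thapsigargin-treated cycling cells also entered the fits, and some are cited for comparison. Etoposide was given at 50 µM in 3 treatments, with the cells taken at day 10. Thapsigargin was given at 25 nM for 3 h. All of the results describe 1 cell line.

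Quiescence is a reversible exit from the cell cycle, in which contact-inhibited fibroblasts hold the CDK inhibitor p27 (CDKN1B) high and can divide again after replating. Senescence after DNA damage is a lasting arrest, in which p53 drives the CDK inhibitor p21 (CDKN1A), RB keeps E2F target genes off, and cells lose lamin B1 and may secrete inflammatory proteins, proteases and growth factors. Both states are non-dividing, so the comparison is between 2 kinds of arrest.

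The 6 RNA-seq libraries held from 25767858 to 30041546 reads in genes. Quiescent replicate 3 had the highest share of unmapped reads, 40.6% against 30.3 to 32.8% in the others, and the lowest share mapped to several places, 9.43% against 17.97 to 21.2%. Levels are given in CPM (read counts scaled to a common library size, with TMM factors), in the order of replicates 1, 2 and 3, and differences as log2 fold changes of irradiated over quiescent cells ± SE. A gene was called where the Benjamini-Hochberg adjusted p of edgeR's quasi-likelihood F test over all genes tested was under 0.05. All 10 fibroblast markers were at 1 CPM or more in every library, with a summed level of 9101 to 12391 CPM in quiescent and 10118 to 10521 CPM in irradiated cells, while 7 immune markers summed to at most 0.313 CPM. Quiescent replicates differed more among themselves than irradiated ones: the chi-square per degree of freedom between pairs of libraries was 51.2 to 80.9 against 9.39 to 17.6. Quiescent replicate 1 was low in genes of secreted and matrix proteins, and quiescent replicate 2 was high in genes of dividing cells. Both are given beside the results they touch.

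Between the 2 states 2488 genes (18.7%) were called, 1198 higher (9.01%) and 1290 lower (9.71%) after irradiation, and 857 of them differed at least 2-fold, 349 higher and 508 lower. The median log2 fold change of all genes tested was 0.01. In 2423 of the called genes the 3 irradiated and 3 quiescent values did not overlap. The same held for 4874 of all 13291 genes tested, so lack of overlap alone is common here. With only the 6 libraries in the fit 1939 genes were called. Leaving out any irradiated replicate lowered the count of called genes to between 1440 and 1545. Among called genes with no overlap and a mean of at least 5 CPM in the higher group, the 10 largest falls were all in replication-dependent histone genes. By the same rule the 10 largest rises were in DIRAS2, CCND2, ATP8B4, ADAMTS19, ARRDC4, SYNPO2, AK4, GCNT4, SULF2 and INSYN1. Members of 33 gene lists are described below by their counts, to be read against the 9.01% and 9.71% of all genes, and their medians against 0.01. Genes named with a log2 fold change kept their call in each of the 15 alternative settings unless a loss is stated.

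**Figure D1:**
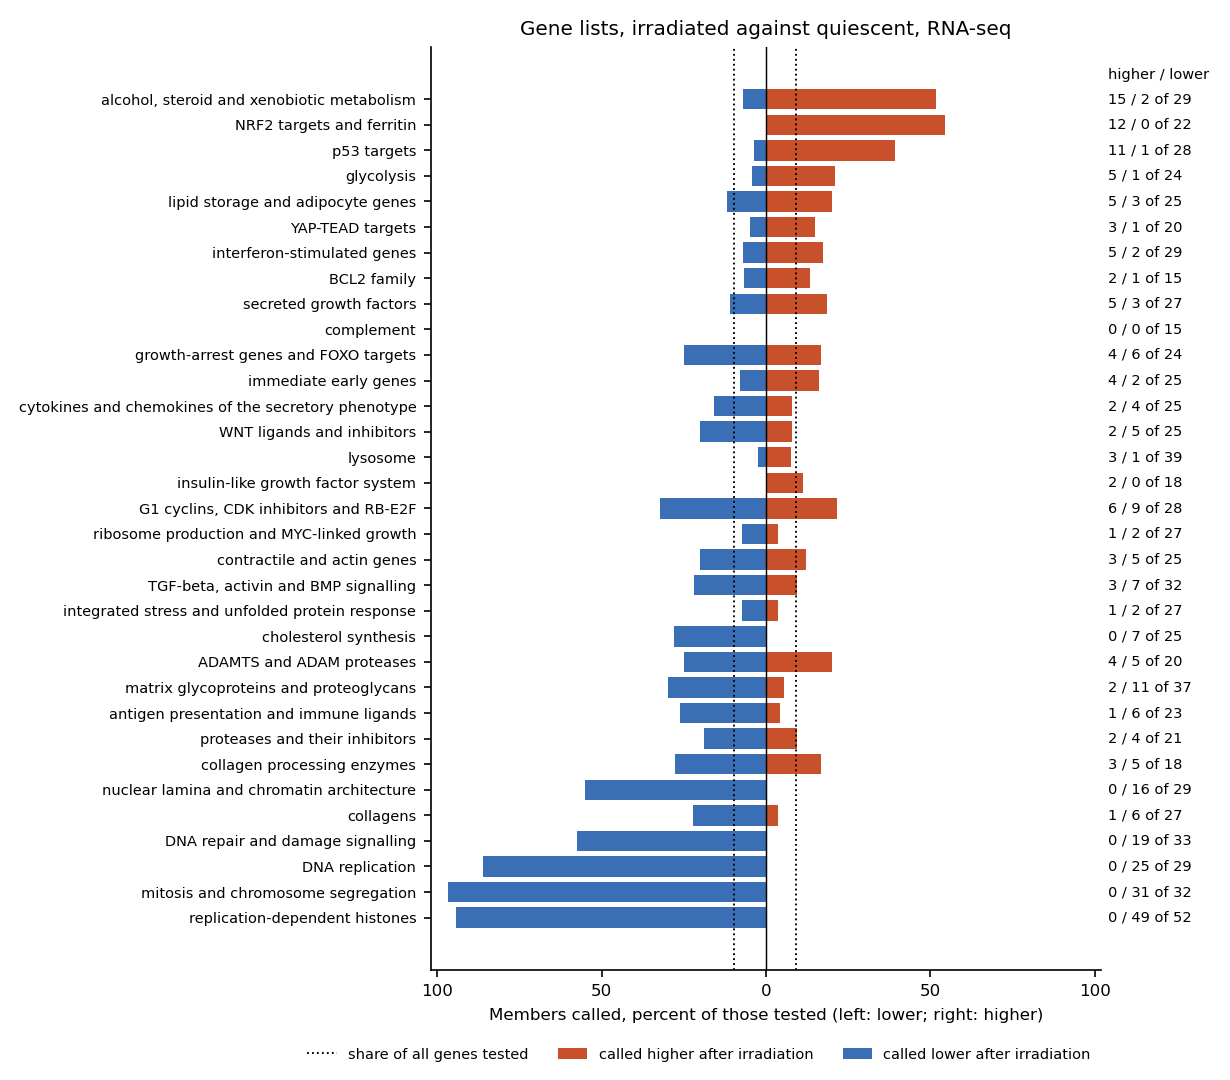
Percent of the tested members of each of 33 gene lists called higher (right, red) or lower (left, blue) in irradiated than in quiescent cells, ordered by the median log2 fold change of the list, with the counts at the right edge; dotted lines mark the 9.01% and 9.71% of all 13291 genes. Histones, mitosis and DNA replication reach furthest to the left, with 49 of 52, 31 of 32 and 25 of 29 members lower, and NRF2 targets (12 of 22) and alcohol, steroid and xenobiotic metabolism (15 of 29) furthest to the right.

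Inhibitors and cyclins of the G1 phase differed between the 2 states. CDKN1A, which encodes the p53-driven inhibitor p21, stood at 1234, 1145 and 842 CPM in quiescent and at 2448, 2863 and 2433 CPM in irradiated cells. It rose by 1.27 ± 0.13 (adjusted p = 2.93e-05). CDKN1B, which encodes p27, was at 78.0, 61.8 and 88.3 CPM in quiescent and at 50.8, 50.9 and 48.4 CPM in irradiated cells, and fell by 0.60 ± 0.15 (adjusted p = 0.0117). Thus every irradiated library was above all quiescent ones for p21 and below them for p27. CDKN2C, which encodes the INK4 inhibitor p18, fell by 1.86 ± 0.17 (adjusted p = 1.06e-05).

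The other INK4 and CIP/KIP inhibitors were not called. CDKN2A, the locus of p16 and ARF, was at 37.1, 24.2 and 19.7 CPM in quiescent and 26.0, 27.6 and 22.3 CPM in irradiated cells, with overlapping values (-0.09 ± 0.19, adjusted p = 0.781). Counts per gene do not separate the p16 and ARF transcripts. CDKN2B (-0.15 ± 0.12, adjusted p = 0.428) and CDKN1C (-0.17 ± 0.21, adjusted p = 0.624) overlapped as well.

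The D-type cyclins, which with CDK4 and CDK6 phosphorylate RB, were called higher after irradiation. CCND3, named after its values were seen, rose by only 0.44 ± 0.13 (adjusted p = 0.0277), a call lost in 5 settings. CCND2 stood at 130, 109 and 113 CPM in quiescent and at 914, 886 and 999 CPM in irradiated cells, a difference of 2.99 ± 0.12 (adjusted p = 9.16e-09). By the rule above this was the second largest rise, after that of DIRAS2. CCND1 went from 1311, 1308 and 996 CPM to 3401, 3227 and 3285 CPM (1.45 ± 0.13, adjusted p = 7.69e-06). CDK6, named after its values were seen, was higher by 0.61 ± 0.12 (adjusted p = 0.00259). E2F8 and E2F2, E2F factors that are themselves cell-cycle genes, fell by 2.25 ± 0.40 (adjusted p = 0.00166) and 1.97 ± 0.36 (adjusted p = 0.00186). Of 28 tested genes of G1 control, 6 were called higher and 9 lower, with a median of -0.12.

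**Figure D2:**
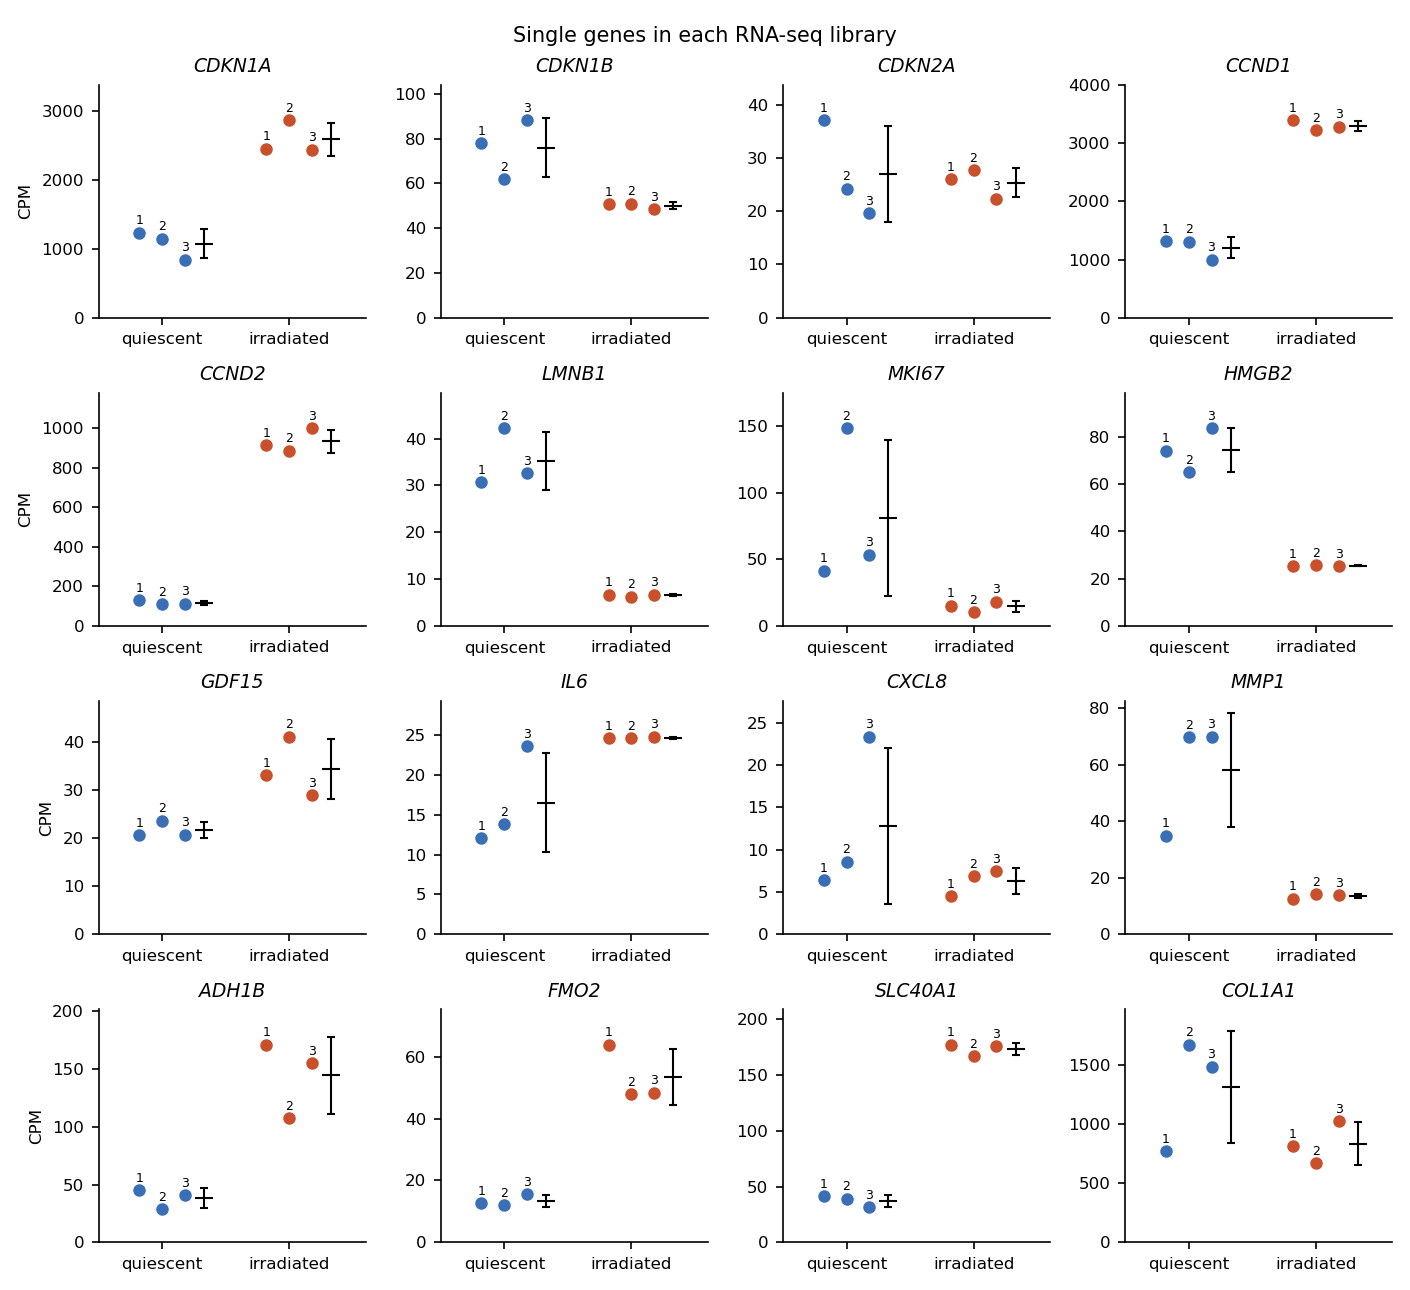
Level in CPM of 16 genes in the 3 quiescent (blue) and 3 irradiated (red) RNA-seq libraries, labelled by replicate number, with the mean and SD of each group as a black bar; each panel has its own axis from 0. The irradiated points of CCND2 (886 to 999 CPM) lie far above the quiescent ones (109 to 130 CPM), those of LMNB1 far below, and those of CDKN2A and COL1A1 overlap; ADH1B, FMO2 and MMP1 are described further on.

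Among genes that p53 is known to activate 11 of 28 were called higher and 1 lower, with a median of 0.30, and 7 of the 12 kept their call in all settings. Without irradiated replicate 1, 7 were called higher. MDM2, the ubiquitin ligase that limits p53, was at 495, 462 and 509 CPM in quiescent and 804, 766 and 810 CPM in irradiated cells (0.70 ± 0.10, adjusted p = 0.000261). RRM2B, a ribonucleotide reductase subunit, rose by 0.89 ± 0.12 (adjusted p = 0.000277), and GDF15, a secreted stress protein, by 0.67 ± 0.14 (adjusted p = 0.00566). The 1 member that fell was PLK2, by 0.54 ± 0.13 (adjusted p = 0.0111). Besides CDKN1A, no member of this list rose by 1 or more on the log2 scale. BAX, FAS and BBC3, p53 targets of the death pathway, were not called. Of the apoptosis regulators of the BCL2 family, 2 of 15 were called higher and 1 lower, and 1 was higher without any 1 irradiated replicate or without quiescent replicate 2 or 3. None was lower without irradiated replicate 2 or 3 or quiescent replicate 1 or 2. BCL2L2, which encodes the pro-survival protein BCL-W, went from 64.3, 58.5 and 54.1 CPM to 131, 128 and 132 CPM (1.14 ± 0.10, adjusted p = 8.45e-06), and BCL2 itself was not called (-0.26 ± 0.13, adjusted p = 0.184).

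Genes of mitosis were lower after irradiation almost without exception. Of 32 tested members, 31 were called lower and none higher, with a median of -1.96, and all 31 calls held in every setting. The remaining member, PRC1, had at most 0.302 CPM in any of the 6 libraries. The summed level of the list was 997, 1631 and 1189 CPM in quiescent and 355, 343 and 394 CPM in irradiated cells, against a mean of 3123 CPM in the 2 cycling and 267 CPM in the 3 etoposide-treated libraries. Quiescent cultures thus kept part of the mitotic signal of cycling cells, most of all replicate 2, and irradiated ones kept less. In bulk RNA, fewer cells of a kind and less RNA per cell cannot be told apart. Without quiescent replicate 2 the median was -1.79 and again 31 members were lower.

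AURKB, the kinase of the chromosomal passenger complex, had the largest fall of the list: 13.6, 19.9 and 11.05 CPM in quiescent against 2.84, 2.23 and 2.16 CPM in irradiated cells (-2.62 ± 0.23, adjusted p = 7.65e-06). CENPA, the histone H3 variant of centromeres, went from 7.07, 10.7 and 7.10 CPM to 1.06, 1.49 and 1.81 CPM (-2.51 ± 0.22, adjusted p = 7.38e-06). MKI67, the source of the Ki-67 antigen of dividing cells, was at 41.3, 148 and 53.4 CPM in quiescent and 15.2, 10.5 and 18.2 CPM in irradiated cells (-2.47 ± 0.42, adjusted p = 0.00122). Its quiescent replicate 2 stood well above the other two, and all irradiated values lay below all quiescent ones. Without that library the change of MKI67 was -1.70 and was again called. TOP2A, topoisomerase II alpha, fell by 2.04 ± 0.19 (adjusted p = 9.81e-06).

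The promoters of mitotic genes are known for 2 short elements, the CHR (TTTGAA among its forms), which the DREAM and MuvB complexes bind, and the CCAAT box of the factor NF-Y. E2F sites such as TTTCCCGC and TTTGGCGC mark genes of DNA replication. The 250 bases before the start of the 4 genes of mitosis or DNA replication with the largest falls among those with a promoter entry are printed below, 5′ to 3′ on the strand of the gene, from RefSeq (GRCh38.p14), as the sequences in which these elements were sought. Capitals mark matches to these 4 elements, and a match on the opposite strand, called inverted, is in capitals as its reverse complement. They are AURKB at chr17:8210226-8210475 (minus strand, 1 of 2 starts listed), CENPA at chr2:26785806-26786055 (plus strand), MKI67 at chr10:128126424-128126673 (minus strand) and ASPM, a spindle pole gene, at chr1:197146670-197146919 (minus strand). ASPM was named after its values were seen.
AURKB: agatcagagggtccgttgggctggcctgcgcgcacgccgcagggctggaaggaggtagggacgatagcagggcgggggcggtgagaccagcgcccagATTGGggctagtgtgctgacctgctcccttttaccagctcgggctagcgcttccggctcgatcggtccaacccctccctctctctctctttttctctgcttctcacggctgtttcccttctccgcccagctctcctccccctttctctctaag
CENPA: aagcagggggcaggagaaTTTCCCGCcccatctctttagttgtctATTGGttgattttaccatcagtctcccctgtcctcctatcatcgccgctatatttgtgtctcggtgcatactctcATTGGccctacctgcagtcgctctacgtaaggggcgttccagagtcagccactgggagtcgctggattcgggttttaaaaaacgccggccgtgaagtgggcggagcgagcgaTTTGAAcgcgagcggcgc
MKI67: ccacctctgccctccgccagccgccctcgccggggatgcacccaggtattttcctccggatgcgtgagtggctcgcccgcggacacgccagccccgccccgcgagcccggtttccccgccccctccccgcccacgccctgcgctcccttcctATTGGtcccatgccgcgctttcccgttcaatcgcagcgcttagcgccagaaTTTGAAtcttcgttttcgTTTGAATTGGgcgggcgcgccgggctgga
ASPM: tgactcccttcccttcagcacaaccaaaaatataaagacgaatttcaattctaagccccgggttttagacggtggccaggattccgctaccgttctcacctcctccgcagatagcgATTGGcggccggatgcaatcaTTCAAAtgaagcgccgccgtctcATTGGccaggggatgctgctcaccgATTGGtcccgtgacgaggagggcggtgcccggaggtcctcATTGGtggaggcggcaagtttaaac

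The AURKB promoter held 1 match, an inverted CCAAT. CENPA held 4 matches, in order an E2F-type TTTCCCGC, 2 inverted CCAAT boxes and a TTTGAA. MKI67 also held 4, with 2 copies of TTTGAA, the second of which shares a base with an inverted CCAAT. ASPM held 5, with 4 inverted CCAAT boxes and an inverted TTTGAA. Of the 31 mitotic genes called lower, 25 had a promoter entry, with 31 starts. TTTGAA occurred in 14 of these 31 promoters (45.2%), against 13.3% of all 35116 promoters and 9.43% of those of tested genes. CCAAT occurred in 22 of 31 (71.0%), against 32.0% of all promoters. For DNA replication genes called lower, 22 genes with 30 promoters matched: TTTGAA occurred in 1 of 30 (3.33%), CCAAT in 21 of 30 (70.0%) and TTTCCCGC in 6 of 30 (20.0%), against 1.39% of all promoters for the latter. TTTGGCGC occurred in 2 of 30 (6.67%), against 0.55% of all. Of the replication genes not called, 4 genes with 6 promoters matched, of which 2 held TTTCCCGC and 1 held TTTGGCGC. The matches are descriptions of letters in a window, and no test was made of them.

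Genes of DNA replication fell less than those of mitosis. Of 29 tested, 25 were called lower and none higher, with a median of -1.16. Their summed level was 787, 1010 and 844 CPM in quiescent and 484, 514 and 514 CPM in irradiated cells, and again quiescent replicate 2 was highest. MCM10, which loads CDC45 onto the replicative helicase, went from 8.75, 17.4 and 15.0 CPM to 2.62, 2.89 and 3.30 CPM (-2.22 ± 0.24, adjusted p = 3.95e-05). ORC1 of the origin recognition complex fell by 2.12 ± 0.22 (adjusted p = 2.37e-05), and CDC45 by 2.01 ± 0.24 (adjusted p = 7.34e-05). PCNA, the sliding clamp of the polymerases and also a p53 target, was not called: it stood at 89.0, 85.7 and 99.2 CPM against 79.2, 94.2 and 93.5 CPM (-0.04 ± 0.13, adjusted p = 0.876). MCM6, POLD1 and TYMS were the other members not called in RNA, and their footprints were called lower, by 0.68, 0.99 and 0.69.

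Replication-dependent histone genes, which are transcribed in S phase from clusters on chromosomes 6 and 1, fell furthest of all the lists. Of 52 tested, 49 were called lower and none higher, with a median of -2.29, and 47 of the calls held in every setting. H2AC14, on chromosome 6, was at 30.9, 43.2 and 30.1 CPM in quiescent and 2.09, 1.68 and 1.45 CPM in irradiated cells. Its fall of 4.32 ± 0.21 (adjusted p = 7.13e-08) was the largest under the rule above. H2BC14 fell by 4.00 ± 0.24 (adjusted p = 5.85e-07), H3C8 by 3.92 ± 0.28 (adjusted p = 1.34e-06) and the linker histone gene H1-5 by 3.65 ± 0.23 (adjusted p = 9.26e-07).

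Members of each histone class were called lower. The median was -2.43 for 5 H1 genes, -2.31 for 11 H2A, -2.49 for 16 H2B, -3.16 for 9 H3 and -1.59 for 11 H4 genes. The 48 members on chromosome 6 had a median of -2.35 and the 4 on chromosome 1 of -1.72. Members not called were H2AC6, H4C8 and H4C11. H2AC6 was at 197, 192 and 174 CPM in quiescent and 204, 242 and 215 CPM in irradiated cells (0.23 ± 0.11, adjusted p = 0.17). H4C5 fell by only 0.92 ± 0.14 (adjusted p = 0.0006) and kept 180, 156 and 160 CPM of 344, 346 and 251 CPM. The summed level of all 52 was 3927, 5158 and 3232 CPM in quiescent and 1444, 1496 and 1438 CPM in irradiated cells, near the 1267 CPM of etoposide-treated and below the 5892 CPM of cycling cells. Histone genes have near-identical copies, and reads that map to several places are in no gene's count, so single values are uncertain. Whether the library kit selected polyadenylated RNA, which replication-dependent histone mRNA lacks, is not given in the sources used here.

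**Figure D3:**
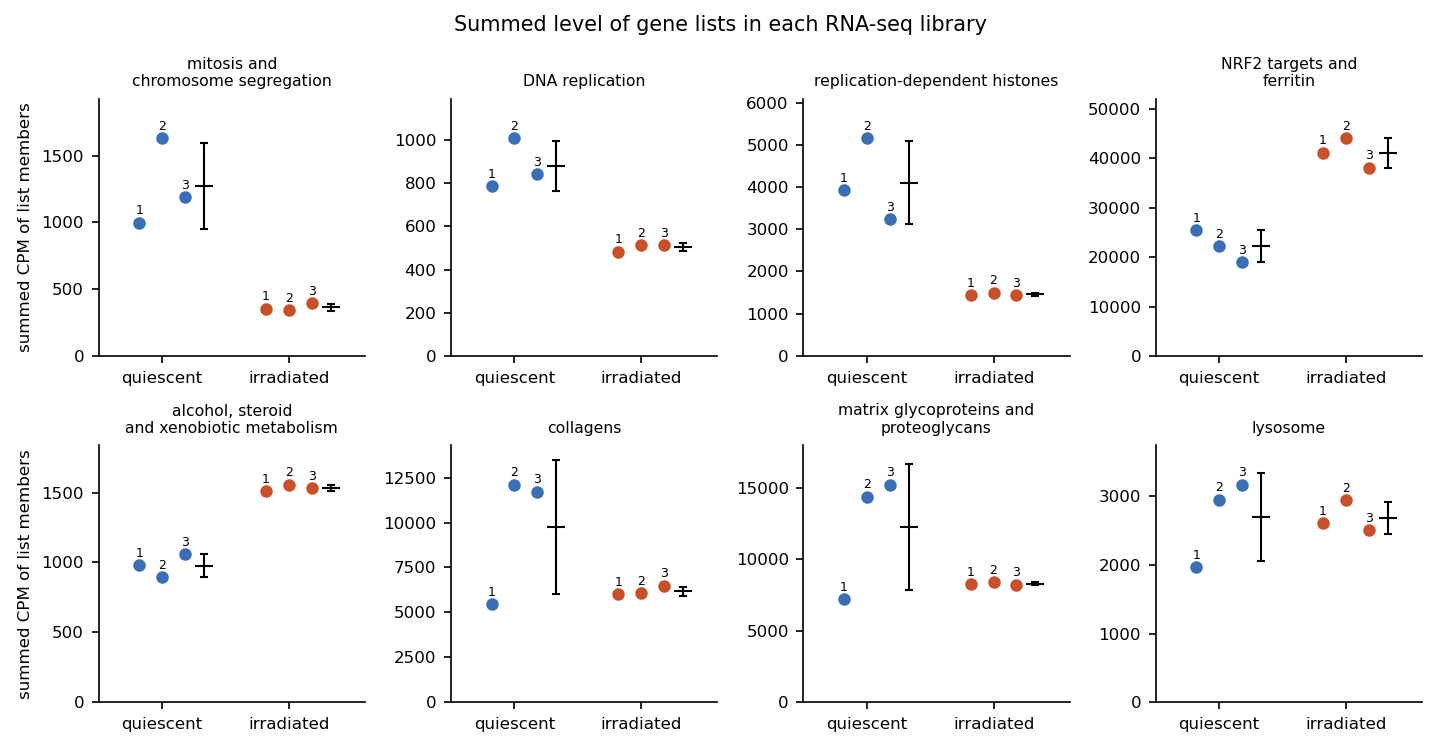
Summed CPM of the tested members of 8 gene lists in each quiescent (blue) and irradiated (red) RNA-seq library, labelled by replicate number, with the mean and SD of each group as a black bar and axes from 0. The mitosis, replication and histone sums of all 3 irradiated libraries lie below every quiescent one, and the NRF2 and alcohol, steroid and xenobiotic metabolism sums above; for collagens and matrix glycoproteins quiescent replicate 1 (5445 and 7239 CPM) lies beside the irradiated libraries and away from quiescent replicates 2 and 3.

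DNA repair genes and genes of the nuclear lamina and chromatin also fell. Of 33 tested repair and damage-signalling genes, 19 were called lower and none higher, with a median of -0.74. They included genes of homologous recombination and of the Fanconi pathway. RAD54L, a motor protein of recombination, fell by 2.50 ± 0.35 (adjusted p = 0.000261), the helicase gene BLM by 2.19 ± 0.24 (adjusted p = 4.01e-05), and FANCD2 by 1.71 ± 0.20 (adjusted p = 6.82e-05). BRCA1, named after its values were seen, was at 15.6, 25.3 and 16.9 CPM in quiescent and 11.2, 11.3 and 12.1 CPM in irradiated cells (-0.74 ± 0.16, adjusted p = 0.00703). Of the damage kinases, CHEK1 was called lower (-0.91 ± 0.17, adjusted p = 0.00278), while ATM, at 90.1, 112 and 116 CPM against 91.7, 102 and 109 CPM, was not called, nor were ATR and CHEK2. The end-joining genes LIG4, XRCC4 and XRCC6 were not called, while XRCC5 fell by 0.45 ± 0.11 (adjusted p = 0.0129), a call lost in 1 setting.

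LMNB1, the lamin whose loss marks senescent fibroblasts, was at 30.8, 42.2 and 32.6 CPM in quiescent and 6.71, 6.26 and 6.68 CPM in irradiated cells (-2.42 ± 0.15, adjusted p = 5.61e-07). HMGB2, an abundant chromatin protein, was at 74.0, 65.0 and 83.6 CPM against 25.2, 25.7 and 25.4 CPM (-1.54 ± 0.14, adjusted p = 9.01e-06). EZH2, the methyltransferase of Polycomb complex 2, fell by 1.87 ± 0.14 (adjusted p = 1.86e-06). In all of these the groups were far apart, and the 3 irradiated values lay within a narrow range. Of 29 lamina and chromatin genes, 16 were called lower and none higher, with a median of -0.45. Without irradiated replicate 1, or without irradiated replicate 3, 10 were lower. LMNA, EMD, SUN1 and the heterochromatin genes CBX1, CBX3 and CBX5 were not called.

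Genes of alcohol, steroid and xenobiotic metabolism were higher in irradiated cells. Of 29 tested, 15 were called higher and 2 lower, with a median of 0.58, and 26 were above 0. ALDH1A1, which makes retinoic acid, had 0.224, 0.755 and 0.282 CPM in quiescent and 2.43, 2.19 and 2.71 CPM in irradiated cells (2.52 ± 0.40, adjusted p = 0.000719). HSD17B2, which oxidises oestradiol and testosterone, rose by 2.84 ± 0.52 (adjusted p = 0.00208) from at most 0.973 CPM. Without quiescent replicate 1 the rise of HSD17B2 was 3.48, and without quiescent replicate 2 that of ALDH1A1 was 3.25. Both genes were thus near the floor in quiescent cells. More abundant members moved as well. ADH1B, FMO2, MAOA and AKR1C1 are named after their values were seen. The alcohol dehydrogenase gene ADH1B was at 45.4, 28.8 and 40.7 CPM in quiescent and 171, 107 and 155 CPM in irradiated cells (1.91 ± 0.45, adjusted p = 0.00974). FMO2, a flavin monooxygenase, was at 12.6, 11.9 and 15.7 CPM against 63.8, 47.9 and 48.3 CPM (1.99 ± 0.24, adjusted p = 9.63e-05). AKR1C1, an aldo-keto reductase, was higher by 1.33 ± 0.18 (adjusted p = 0.000242), although AKR1C genes are close copies and reads may be split between them.

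The monoamine oxidases moved in opposite directions. MAOA went from 3.78, 3.66 and 4.56 CPM to 15.7, 17.7 and 15.0 CPM (2.01 ± 0.16, adjusted p = 3.27e-06), and its neighbour on the X chromosome, MAOB, fell from 3.18, 3.06 and 2.14 CPM to 0.682, 0.547 and 0.275 CPM (-2.46 ± 0.34, adjusted p = 0.000275). CYP26B1, which degrades retinoic acid, had 0 counts in the 3 quiescent libraries together and 16 in the irradiated ones, at least 5.33-fold higher against a floor of 3 counts over the group, and lost its call in 7 settings. With that bound in place of its fitted value the median of the list was again 0.58.

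Of 22 genes of iron handling and of the antioxidant response governed by NRF2, 12 were called higher and none lower, with a median of 0.58. SLC40A1, the iron exporter ferroportin, was at 41.5, 39.2 and 31.5 CPM in quiescent and 177, 167 and 176 CPM in irradiated cells (2.21 ± 0.17, adjusted p = 2.63e-06). GPX3, the secreted glutathione peroxidase, went from 5.01, 6.19 and 4.31 CPM to 23.8, 21.3 and 21.5 CPM (2.10 ± 0.29, adjusted p = 0.000227). TXNRD1, thioredoxin reductase, was at 1243, 1067 and 1164 CPM against 2712, 2899 and 2612 CPM (1.24 ± 0.11, adjusted p = 5.38e-06). No values overlapped in these 3 genes. FTL, the ferritin light chain, rose by 1.01 ± 0.12 (adjusted p = 8.82e-05). The heavy chain gene FTH1 was at 6349, 5520 and 4059 CPM against 10779, 9682 and 9367 CPM, without overlap, and was not called (0.91 ± 0.32, adjusted p = 0.0692). Ferritin genes have many processed pseudogenes, so their counts are uncertain. NQO1, a widely used NRF2 target, was not called (0.25 ± 0.11, adjusted p = 0.119), and neither were GCLC, SRXN1, PGD and TKT. In footprints PGD and TKT, enzymes of the pentose phosphate pathway, were called higher by 0.90 (adjusted p = 4.92e-05) and 0.47 (adjusted p = 0.00351), and NQO1 and GCLC were not called.

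TXNIP and ARRDC4, arrestin-family genes that the glucose sensor MondoA/ChREBP activates, were both higher. ARRDC4 was at 46.2, 46.3 and 45.0 CPM in quiescent and 267, 276 and 281 CPM in irradiated cells (2.58 ± 0.10, adjusted p = 9.16e-09), and TXNIP went from 277, 190 and 198 CPM to 584, 576 and 486 CPM (1.31 ± 0.16, adjusted p = 9.43e-05). TXNIP is also on the list of growth-arrest genes and FOXO targets, of which 4 of 24 were called higher and 6 lower, with a median of 0.03. Without irradiated replicate 2, 2 were higher. SESN3, a sestrin that restrains mTORC1, rose by 0.95 ± 0.10 (adjusted p = 3.21e-05), and KLF4, a transcription factor of arrested cells, fell by 1.46 ± 0.18 (adjusted p = 0.000108). Of 24 glycolysis genes 5 were called higher and 1 lower, with a median of 0.28, but leaving out irradiated replicate 2 or quiescent replicate 3 left 1 higher. PGK1 kept its call throughout (0.48 ± 0.10, adjusted p = 0.00556).

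Of 25 cytokine and chemokine genes of the senescent secretome, 2 were called higher and 4 lower, with a median of 0.00, against 18.7% of all genes called in either direction. The count of lower members was 2 without irradiated replicate 1, irradiated replicate 2 or quiescent replicate 3. IL6 was at 12.1, 13.8 and 23.7 CPM in quiescent and 24.6, 24.6 and 24.8 CPM in irradiated cells. The irradiated values lay just above the highest quiescent one, and the gene was not called (0.58 ± 0.25, adjusted p = 0.125). CXCL8, which encodes interleukin 8, was at 6.40, 8.57 and 23.3 CPM against 4.47, 6.88 and 7.43 CPM, with overlap (-1.03 ± 0.59, adjusted p = 0.253). The 2 higher were CCL26 and CCL2. CCL26 rose by 2.73 ± 0.63 (adjusted p = 0.00901) and kept its call in the 13 settings that tested it. Both fits of only the 6 libraries did not test it, because it did not pass their filter on low counts. Its change thus rests on few reads. CCL2, a chemokine for monocytes, was higher by 0.52 ± 0.16 (adjusted p = 0.0422), a call lost in 7 settings. IL32 fell by 1.35 ± 0.28 (adjusted p = 0.00467). The summed level of the 25 genes was 404 to 503 CPM in quiescent and 395 to 457 CPM in irradiated cells, against a mean of 1727 CPM in etoposide-treated cells.

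Secreted proteases differed in both directions. MMP1, interstitial collagenase, was at 34.8, 69.8 and 69.9 CPM in quiescent and 12.6, 14.1 and 13.9 CPM in irradiated cells (-2.11 ± 0.23, adjusted p = 3.59e-05). SERPINF1, a serpin that blocks blood vessel growth, fell by 1.86 ± 0.18 (adjusted p = 1.38e-05). Of 21 proteases and inhibitors 2 were called higher and 4 lower, with a median of -0.38, and 9 were lower without quiescent replicate 1. ADAMTS proteases went both ways: of 20 ADAM and ADAMTS genes 4 were higher and 5 lower. ADAMTS19 rose by 2.63 ± 0.27 (adjusted p = 2.13e-05), ADAMTS5, an aggrecanase, by 1.87 ± 0.29 (adjusted p = 0.000609), and ADAM12 fell by 1.52 ± 0.21 (adjusted p = 0.000248).

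Among secreted growth factors 5 of 27 were called higher and 3 lower, with a median of 0.04. FGF7, a mitogen of epithelia made by fibroblasts, was at 165, 167 and 271 CPM in quiescent and 587, 506 and 542 CPM in irradiated cells (1.44 ± 0.27, adjusted p = 0.00219). MDK, midkine, fell by 1.04 ± 0.15 (adjusted p = 0.000373), and PDGFC by 0.85 ± 0.16 (adjusted p = 0.00252). Without irradiated replicate 2 the count of higher members was 2, without irradiated replicate 1 it was 3, and without quiescent replicate 1 the count of lower ones was 6. IGFBP5, an IGF-binding protein, was at 1177, 2776 and 2959 CPM against 4519, 3460 and 3485 CPM and was not called (0.73 ± 0.29, adjusted p = 0.094). Of the 18 genes of the IGF system 2 were called higher and none lower. That count of 2 was 0 without irradiated replicate 2, 1 without irradiated replicate 1 or 3, and 3 without quiescent replicate 3. No complement gene of 15 was called by edgeR or by DESeq2, and 0 had an unadjusted p under 0.05. Without quiescent replicate 1 edgeR called 1 lower, and without quiescent replicate 3 it called 1 higher.

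Counts of called collagen and matrix genes changed when single libraries were left out. Collagens summed to 5445, 12108 and 11723 CPM in quiescent and to 6031, 6056 and 6482 CPM in irradiated cells, and matrix glycoproteins and proteoglycans to 7239, 14379 and 15233 CPM against 8258, 8422 and 8243 CPM. Quiescent replicate 1 thus stood with the irradiated libraries. Footprints had the same pattern: collagens summed to 12183, 28874 and 39488 CPM in the quiescent and 13378, 15282 and 14145 CPM in the irradiated Ribo-seq libraries. Of 27 collagen genes 6 were called lower and 1 higher with all libraries, with a median of -0.51, and 16 were lower without quiescent replicate 1. Of 37 matrix genes 11 were called lower and 2 higher, with a median of -0.37. That count of 11 was 19 without quiescent replicate 1, 4 without replicate 2, 6 without replicate 3, and 5, 6 and 5 without irradiated replicates 1, 2 and 3. The part that quiescent replicate 1 has in these calls was not tested beyond those values.

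Some matrix genes were lower in every irradiated library than in every quiescent one. COL12A1, a collagen that binds along type I fibrils, was at 390, 855 and 939 CPM in quiescent and 290, 297 and 282 CPM in irradiated cells (-1.33 ± 0.25, adjusted p = 0.00269). FN1, fibronectin, was at 3214, 6573 and 6550 CPM against 2908, 2980 and 2831 CPM (-0.91 ± 0.22, adjusted p = 0.0124), a call lost in 1 setting. HAS2, the main hyaluronan synthase of fibroblasts, fell by 1.51 ± 0.23 (adjusted p = 0.000577). COL1A1, the chain most used as a fibroblast marker, overlapped: 773, 1669 and 1485 CPM against 812, 669 and 1023 CPM (-0.65 ± 0.41, adjusted p = 0.299). COL14A1 was the 1 collagen that rose, from 33.8, 63.3 and 63.1 CPM to 107, 97.6 and 118 CPM (1.01 ± 0.22, adjusted p = 0.00554).

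Of the enzymes that modify collagen 3 of 18 were called higher and 5 lower. PCOLCE, which speeds the cutting of procollagen C-propeptides, fell by 1.66 ± 0.22 (adjusted p = 0.000182), and P3H2, a prolyl 3-hydroxylase, rose by 0.80 ± 0.16 (adjusted p = 0.00429). The 5 lower were 9 without quiescent replicate 1 and 2 without quiescent replicate 2, irradiated replicate 1 or irradiated replicate 3. The 3 higher were 1 without irradiated replicate 2 or 3. TGFBI, a matrix protein induced by TGF-beta, was at 1590, 2089 and 2194 CPM in quiescent and 971, 974 and 972 CPM in irradiated cells (-1.01 ± 0.13, adjusted p = 0.000135). Of 32 genes of TGF-beta, activin and BMP signalling 3 were called higher and 7 lower, with a median of -0.19. The 7 were 4 without irradiated replicate 1 or quiescent replicate 3 and 3 without irradiated replicate 2, which also left 1 higher. BMP4 rose by 0.88 ± 0.19 (adjusted p = 0.00638), and ID1, a direct BMP target, fell by 0.97 ± 0.22 (adjusted p = 0.0077).

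Contractile genes gave no common direction, with 3 of 25 higher and 5 lower. The smooth muscle myosin gene MYH11 was at 7.63, 9.29 and 15.7 CPM in quiescent and 47.9, 37.7 and 32.6 CPM in irradiated cells (1.86 ± 0.33, adjusted p = 0.00178). ACTA2, the alpha smooth muscle actin of myofibroblasts, was not called (-0.37 ± 0.23, adjusted p = 0.289). Together the 6 markers of smooth muscle and pericytes summed to 417 to 614 CPM in quiescent and 441 to 514 CPM in irradiated cells. Leaving out 1 library gave 1 to 3 higher and 1 to 5 lower contractile genes, with the lowest counts without irradiated replicate 1 or 2 or quiescent replicate 2 for the higher and without irradiated replicate 3 for the lower. FRZB, the gene of a secreted WNT inhibitor, went from 5.91, 7.82 and 15.0 CPM to 1.33, 1.37 and 1.65 CPM (-2.72 ± 0.35, adjusted p = 0.000136). Of 25 genes of WNT ligands, inhibitors, receptors and nuclear factors 2 were higher and 5 lower, and 3 were lower without irradiated replicate 2.

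Interferon-stimulated genes were split. IFIT2, an interferon-induced RNA-binding protein gene, rose by 0.84 ± 0.14 (adjusted p = 0.00126). USP18, which turns off the interferon receptor, fell by 1.10 ± 0.16 (adjusted p = 0.000403). In all 5 of 29 were called higher and 2 lower, with a median of 0.12, and leaving out irradiated replicate 2 or quiescent replicate 2 left 2 higher, and irradiated replicate 3 or quiescent replicate 3 left 3. Of 23 genes of antigen presentation and immune ligands 1 was called higher and 6 lower, and no call held in every setting: from 0 members lower without irradiated replicate 1 to 11 without quiescent replicate 1. VCAM1 was the member called higher (1.01 ± 0.25, adjusted p = 0.0143, lost in 1 setting).

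Of lysosomal genes, which serve a compartment that expands in senescent cells, 3 of 39 were called higher and 1 lower, with a median of -0.04. GLB1, the source of the beta-galactosidase activity used to stain senescent cells, was at 34.8, 48.0 and 49.0 CPM in quiescent and 39.4, 45.2 and 41.6 CPM in irradiated cells, with overlap (-0.06 ± 0.13, adjusted p = 0.789). A p above the threshold does not show equal levels. ATP6V1H, a subunit of the proton pump, rose by 0.49 ± 0.10 (adjusted p = 0.00442). Without quiescent replicate 1, 9 lysosomal genes were called lower, without quiescent replicate 2, 5 were higher, and without irradiated replicate 2, 1 was higher.

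Of 25 cholesterol synthesis genes 7 were called lower and none higher, with a median of -0.22. SQLE, squalene epoxidase, was at 43.3, 63.0 and 73.3 CPM in quiescent and 32.6, 35.7 and 29.6 CPM in irradiated cells (-0.88 ± 0.16, adjusted p = 0.00184). The 7 were 3 without irradiated replicate 1 or quiescent replicate 2 and 4 without irradiated replicate 3. FABP3, a fatty-acid binding protein, fell by 1.50 ± 0.15 (adjusted p = 2.27e-05) and SCD, the stearoyl-CoA desaturase, by 0.63 ± 0.15 (adjusted p = 0.0106). Both are on the list of lipid storage and adipocyte genes, of which 5 of 25 were called higher and 3 lower. Those 5 were 1 without irradiated replicate 2, 2 without irradiated replicate 1 or quiescent replicate 2, and 3 without irradiated replicate 3. The lists of the integrated stress response (1 of 27 higher, 2 lower), ribosome production (1 of 27 higher, 2 lower), YAP-TEAD targets (3 of 20 higher, 1 lower) and immediate early genes (4 of 25 higher, 2 lower) are given here by their counts alone. Leaving out quiescent replicate 1 gave 8 lower stress-response genes, and leaving out quiescent replicate 2 or any 1 irradiated replicate gave 0, so that none of its 3 calls held in every setting. Leaving out irradiated replicate 3, quiescent replicate 1 or quiescent replicate 2 gave 1 immediate early gene higher. Leaving out quiescent replicate 3 gave 5 higher YAP-TEAD targets. GADD45A, a damage-induced gene on the YAP-TEAD list, rose by 0.99 ± 0.11 (adjusted p = 4.97e-05), and ATF3 by 0.82 ± 0.13 (adjusted p = 0.000534). ATF4 was not called (-0.09 ± 0.09, adjusted p = 0.544).

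Most genes called in RNA had a footprint change of the same sign. The quiescent footprint libraries held from 17508672 to 19996104 reads in genes and the irradiated ones from 2652013 to 5556293, so low genes are less precise in the latter. Of 11764 genes tested in footprints 1710 were called (14.5%), 814 higher (6.92%) and 896 lower (7.62%). Of the genes called higher in RNA, 1077 were tested in footprints: 469 were called higher, none lower, and 97.3% had a footprint change of the same sign. Of those called lower in RNA, 1219 were tested: 630 were called lower, 1 higher, and 97.7% had the same sign. RNA and footprints came from parts of the same kind of lysate, and libraries of both may come from the same cultures, so they are not independent samples. All 32 mitotic genes were called lower in footprints, with a median of -2.28, as were 49 of 50 histone genes (-2.43). LMNB1 fell by 2.71 and CCND2 rose by 3.01 in footprints, with adjusted p = 1.24e-07 and 1e-08. CDKN1A footprints rose by 1.27 (adjusted p = 1.23e-05), the same size as in RNA. In footprints 15 of 22 NRF2 and ferritin genes and 10 of 24 glycolysis genes were called higher and none lower, against 12 and 5 higher in RNA. Whether those counts differ between the assays was not tested.

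**Figure D4:**
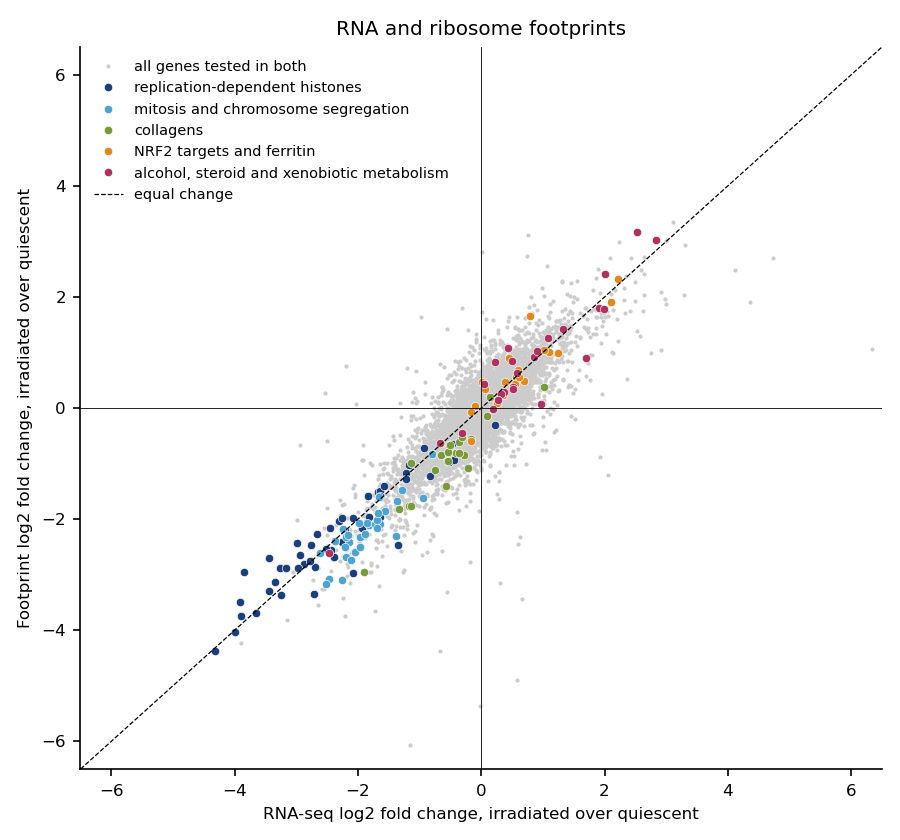
Log2 fold change of irradiated over quiescent cells in RNA-seq (x axis) and in ribosome footprints (y axis) for the 11713 genes tested in both, with members of 5 gene lists coloured and the line of equal change dashed. Histone and mitotic genes lie at the lower left, with H2AC14 at -4.32 in RNA and -4.38 in footprints, and the metabolic and NRF2 genes that rose lie at the upper right.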

How the data were processed

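RNA-seq and ribosome footprint (Ribo-seq) libraries of IMR90 cells were used. The deposited values are raw read counts per gene, in separate columns for both strands together, the forward and the reverse strand. Per the submitters' processing notes, bcl2fastq, STAR 2.7.10b, DESeq2 1.36.0 and hg38 were used. The annotation version is not given in the sources used here. The reverse-strand column was taken for RNA-seq and the forward one for footprints. Per the labels' protocols, RNA was prepared with a stranded kit, and RNA-seq and footprints came from parts of cell lysates.

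Of 60534 gene IDs, 60461 had a symbol and 40525 matched the RefSeq table by symbol or synonym. The 19307 protein-coding ones entered the analysis. In the 6 RNA-seq libraries compared, 30.3 to 40.6% of reads were unmapped, 9.43 to 21.2% mapped to several places, 3.46 to 5.34% lay outside genes and 5.79 to 10.1% were ambiguous. None of these reads is in a gene's count or in the library sizes. The SE includes the estimated spread between libraries, while floors cover counting error only.

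Counts were filtered with filterByExpr, scaled by TMM and tested with the robust quasi-likelihood F test of edgeR 4.0.16 (R 4.3.3). All 13 RNA-seq libraries were in 1 fit, so that 5 groups share the estimate of spread, with irradiated against quiescent cells as the contrast. The 14 footprint libraries were fitted likewise. P-values were adjusted by Benjamini-Hochberg over all genes tested. SE was taken as the size of the log2 fold change over the square root of F. Scripts were tested on simulated data. No batch is given in the labels. Alternatives were DESeq2 1.42.0, DESeq2 size factors, no filter, all gene types, both strands, only the 6 libraries, no thapsigargin libraries, a replicate block, and leaving out each library.

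Replicate numbers are shared between groups. In footprints the deviations of same-numbered libraries from their group means correlated at 0.10, 0.14 and 0.19. These values do not settle whether equal numbers mark pairs. The footprint calls in the text come from the fit without a replicate block. Not every footprint library correlated best with its own number: quiescent replicate 2 and irradiated replicate 1 correlated at 0.15. With the block the footprint calls of ADAM19, HAS2, AMOTL2 and BMP4 were lost, at adjusted p = 0.0529, 0.0598, 0.0587 and 0.0576, and those of BTG2 and ASAH1 were gained, at 0.0404 and 0.0414.

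Genes were named by rule: the 10 largest rises and falls among called, non-overlapping genes with at least 5 CPM in the higher group; a fixed set of markers; and from each list up to 3 called members per direction and the most abundant one. Others are said to be chosen after their values were seen. The comparison, lists and rules were chosen with earlier results of these data known. Some genes are not reported here.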

Additional observations from a re-analysis of the deposited data

How the results depend on the processing

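The count of genes called in RNA (2488) was 2273 with no filter on low counts, 2489 with DESeq2 size factors, 3072 with DESeq2, 2749 over all gene types, 2416 with both strands together, 1939 with only the 6 libraries and 2950 without the thapsigargin libraries. It ranged from 1440 (without irradiated replicate 2) to 2813 (without quiescent replicate 1) when 1 library was left out. The count of footprint calls (1710) was 2370 with DESeq2 and 2546 without the thapsigargin libraries, and ranged from 939 (without irradiated replicate 1) to 2387 (without quiescent replicate 1) when 1 library was left out, with 994 without quiescent replicate 2. In RNA-seq the deviations of same-numbered libraries correlated at 0.07, -0.09 and 0.20, and not every library correlated best with its own number. Whether equal numbers mark pairs is not settled by these values either. With a replicate block 2391 genes were called in RNA and 1631 in footprints, and with only the 6 libraries and the replicate block 1909 and 1509. No called gene of the named set changed direction in any setting. Of 163 named genes called in RNA, 7 lost the call with the block, 0 with DESeq2, and 15 to 51 when 1 library was left out, with the most lost without irradiated replicate 2. Scaling by DESeq2 size factors moved the median of all genes by 0.0015. The lowest genes are the least precise: PRC1 and CYP26B1 rest on a few reads per RNA-seq library. PRC1 was among the 32 mitotic genes called lower in footprints, and why its RNA counts were so low was not tested.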

Other observations

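Gene families outside the lists were chosen after their values were seen, and their counts are descriptions. Genes with symbols of the mitochondrial respiratory chain that differed were higher in irradiated cells. By symbol, 8 of 37 genes of complex I and 10 of 52 of complexes II to V were called higher and none lower. Their medians were 0.21 and 0.25. Symbols alone set these groups, so the called members include NDUFA4L2, COX14 and ATP5IF1, and not every member need be a subunit. Both counts of called genes changed when 1 library was left out. Without irradiated replicate 2 they were 3 and 3, and without quiescent replicate 2 they were 3 and 4. Without quiescent replicate 3 they were 5 and 4, and without quiescent replicate 1 they were 9 and 14. The medians stayed above 0 in each of these fits, at 0.11 and 0.17 without irradiated replicate 2. Without irradiated replicate 1 or 3 complex I had 5, and without irradiated replicate 3 complexes II to V had 6. The 9.01% of all genes called higher is from the fit with all libraries, so it is not the share to set beside these counts. Without irradiated replicate 2 the count of all called genes was also lower, 1440 against 2488. COX7A1, a subunit of cytochrome c oxidase, was at 6.21, 4.53 and 4.36 CPM in quiescent and 16.9, 19.4 and 18.6 CPM in irradiated cells (1.86 ± 0.16, adjusted p = 5.38e-06 in edgeR's quasi-likelihood test). Potassium channel genes went both ways, with 10 of 41 higher and 6 lower. The count of higher members was 4 without irradiated replicate 2, 5 without irradiated replicate 1 or quiescent replicate 3, and 6 without irradiated replicate 3 or quiescent replicate 2. KCNJ2, an inward rectifier, went from 21.8, 30.2 and 27.3 CPM to 71.2, 72.9 and 62.3 CPM (1.38 ± 0.14, adjusted p = 2.23e-05), and KCNK2, a mechanosensitive leak channel, from 26.4, 23.5 and 27.5 CPM to 8.38, 8.17 and 10.8 CPM (-1.50 ± 0.14, adjusted p = 9.81e-06). Of 18 integrin genes 7 were called lower and 1 higher. The count of lower members was 11 without quiescent replicate 1, 2 without irradiated replicate 1, 3 without irradiated replicate 2 or 3 or quiescent replicate 2, and 4 without quiescent replicate 3. Their summed level was 1182, 2194 and 2701 CPM in quiescent and 1418, 1492 and 1378 CPM in irradiated cells, so quiescent replicate 1 stood with the irradiated libraries here too. None of 21 HOX genes was called by edgeR, while 3 had an unadjusted p under 0.05 and 1 was called by DESeq2. Without quiescent replicate 1 or 2 edgeR called 1 higher.

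Single genes outside the lists, also chosen after their values were seen, differed with little spread between replicates and kept their call in every setting. GABARAPL1, an ATG8 family gene of autophagy, was at 337, 281 and 317 CPM in quiescent and 1086, 1207 and 1019 CPM in irradiated cells (1.82 ± 0.11, adjusted p = 4.1e-07). EPAS1, which encodes the hypoxia-inducible factor HIF-2 alpha, was at 1325, 1372 and 1253 CPM against 2997, 2646 and 2811 CPM (1.10 ± 0.13, adjusted p = 8.33e-05). In the other direction SLC14A1, a urea transporter gene, was at 32.9, 32.4 and 36.5 CPM in quiescent and 4.59, 6.14 and 4.76 CPM in irradiated cells (-2.72 ± 0.18, adjusted p = 1.07e-06). DPYSL3, a cytoskeletal regulator, was at 417, 401 and 384 CPM against 155, 156 and 146 CPM (-1.39 ± 0.10, adjusted p = 1.69e-06). In all 4 genes the groups lay far apart.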
